A study of Mus musculus with 6 samples.

Results

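Interleukin-18 binding protein (Il18bp), the IL-1 family genes Il18, Il1b and Il1rn, and the inflammasome genes Nlrp3, Aim2, Pycard, Casp1, Casp4 and Gsdmd were examined in Ba/F3 cells with and without an inducible SPAG9-JAK2 kinase fusion. They are 10 of the 18193 genes on the array that could be named, and every probe set with one of their symbols was taken, 14 of 34945. The 10 genes were selected on earlier results of this same comparison, the log2 signals of the 3 induced against the 3 uninduced arrays, so their levels, differences and calls in the fit over all genes are given as a description and are no independent test. Ba/F3 is a line of mouse pro-B cells whose growth needs interleukin-3. All cultures came from Ba/F3 cells transduced with SPAG9-JAK2, a fusion of the scaffold protein SPAG9 with the tyrosine kinase JAK2, in a retroviral Tet-On system that doxycycline switches on. Induced cells (3 arrays) were grown with doxycycline at 500 ng/ml and uninduced cells (3 arrays) without it, and total RNA was taken 48 hours later. No array held doxycycline-treated cells without the fusion. The sources used here state neither whether the line is 1 clone nor whether the medium held interleukin-3.

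Inflammasomes are protein platforms that form when a sensor, such as NLRP3 or the DNA sensor AIM2, meets a danger signal and binds the adaptor ASC, the product of Pycard. ASC gathers caspase-1, which cuts the precursors of IL-1β and IL-18 into their active forms and cuts gasdermin D, whose fragment opens pores in the membrane and kills the cell by pyroptosis. The product of mouse Casp4, also known as caspase-11, senses bacterial lipopolysaccharide in the cytosol and cuts gasdermin D too. Both cytokines have natural blockers: the IL-1 receptor antagonist, encoded by Il1rn, occupies the IL-1 receptor, and IL-18 binding protein traps free IL-18. These genes are best known in macrophages and other myeloid cells, and Il18bp is a known target of interferon-γ.

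Signals are linear intensities that the authors had scaled to a trimmed mean of 500 on each array. Levels here are log2(signal + 16), and differences are induced minus uninduced on that scale, which understates changes of genes with low signal. As a guide to the level of silent genes, the 23 measured genes of a list of liver, brain and pancreas genes had a 90th percentile of 5.98. Uninduced replicate 1 stood apart. Among genes at or above the median level, it differed from uninduced replicates 2 and 3 by a median of 0.37 and 0.34. Those differed from each other by 0.11. Induced replicate 1 stood apart less, by 0.27 and 0.24 from induced replicates 2 and 3, which differed from each other by 0.15. Of 16 measured pro-B cell markers 6 exceeded the silent level in at least 1 group. These were Cd79b, the interleukin-3 receptor genes Csf2rb and Il3ra, and Pax5, Igll1 and Vpreb1. The last 3 lay close to it, with higher group means of 6.33, 6.26 and 6.05. Cd79a, Ebf1, Rag1, Rag2, Dntt, Il7r, Cd93, Blnk, Cd24a and Kit did not exceed it. Mouse Jak2 and Spag9 stood at -0.54 ± 0.41 and -0.92 ± 0.33 (difference ± SE), and the 3 probe sets of Spag9 ranged from -0.92 to 0.67. The sources used here do not say which parts of the fusion transcript these probe sets could detect, so they check nothing about the induction.

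Across all genes 34 were called at a limma adjusted p under 0.05 (0.187%), 21 higher and 13 lower in induced cells (24 and 6 after median centring of the arrays). The groups did not overlap for 10.7% with induced cells higher and for 13.4% with induced cells lower. Of the 10 genes 1 was called, Il18bp, and 4 had all induced arrays above all uninduced arrays: Il18bp, Casp1, Casp4 and Il18. None had all induced arrays below. Their median difference was 0.29, against -0.06 over all genes. Since the 10 genes were picked with this comparison known, nothing is read from these counts.

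The promoters of those 4 genes are shown because all induced arrays were above all uninduced ones for each, and because interferon and JAK signals reach promoters through short DNA elements. Sequences are the 250 bases before each annotated start, 5′ to 3′ on the gene's strand, from RefSeq on GRCm38.p6, in lower case with motif matches in capitals. Il18bp lies at chr7:102018233-102018482 (minus strand), Casp1 at chr9:5298267-5298516, Casp4 at chr9:5308599-5308848 and Il18 at chr9:50554450-50554699 (all plus strand). Casp4 has a second annotated start, whose stretch (chr9:5308610-5308859) overlaps the first and is not shown.
Il18bp: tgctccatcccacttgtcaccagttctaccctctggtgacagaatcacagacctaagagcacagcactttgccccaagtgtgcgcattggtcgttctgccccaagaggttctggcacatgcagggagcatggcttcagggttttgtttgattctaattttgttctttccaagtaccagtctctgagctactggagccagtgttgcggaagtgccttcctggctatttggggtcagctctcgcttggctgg
Casp1: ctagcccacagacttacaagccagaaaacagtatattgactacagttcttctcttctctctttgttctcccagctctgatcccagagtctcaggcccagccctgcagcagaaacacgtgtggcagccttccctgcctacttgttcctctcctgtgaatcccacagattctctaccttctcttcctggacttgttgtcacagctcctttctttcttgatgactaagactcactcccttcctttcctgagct
Casp4: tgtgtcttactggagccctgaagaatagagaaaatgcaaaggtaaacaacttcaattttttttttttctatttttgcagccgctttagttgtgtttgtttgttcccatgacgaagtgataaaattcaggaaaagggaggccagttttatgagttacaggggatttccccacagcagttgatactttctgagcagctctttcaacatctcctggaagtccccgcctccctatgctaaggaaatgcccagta
Il18: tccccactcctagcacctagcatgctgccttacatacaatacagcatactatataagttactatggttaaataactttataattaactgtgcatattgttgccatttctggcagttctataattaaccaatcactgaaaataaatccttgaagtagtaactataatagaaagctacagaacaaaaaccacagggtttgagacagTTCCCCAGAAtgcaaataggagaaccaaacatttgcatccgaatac
Windows from 250 bases before to 50 after the start were found for 9 of the 10 genes, all but Gsdmd. The GAS core bound by STAT dimers (TTCNNNGAA) and the ISRE core of interferon-stimulated genes (GAAA repeated after a gap of 2 bases), searched on both strands, had no match in the windows of these 9 genes, and occurred in 9.55% and 3.99% of all genes with a window. A GAS-like element with a longer spacer (TTC and GAA, 4 bases apart), searched after the first result was seen, was found for 3 of the 9 genes, Il18, Il1rn and Nlrp3, and for 8.01% of all genes. In Il18 it is the capital stretch, which begins 46 bases before the start. No other match of the 3 motifs was found in that window. A motif match is a description of these letters and not a binding site.

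Il18bp encodes the secreted trap for IL-18, and it was the gene of the group with the widest separation. Its 1 probe set had signals of 528, 1019 and 670 on induced replicates 1, 2 and 3, and of 49.0, 22.0 and 21.8 on uninduced replicates 1, 2 and 3. The lowest induced array was thus far above the highest uninduced array, by 3.07 on the log2 scale. Mean signals were 739 ± 253 (SD, n = 3) in induced and 30.9 ± 15.6 (SD, n = 3) in uninduced cells, and the difference was 4.004 ± 0.33 (SE). Uninduced cells averaged 5.50, under the silent level, so that the transcript was hardly detected without induction and the size of the difference depends on the constant added before the logarithm: it was 3.05 with 64 and 4.58 with 1. Between arrays of the same number the difference was 3.07, 4.77 and 4.18. The smallest belongs to number 1, where the uninduced array was the highest and the induced array the lowest of its group.

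The standing of Il18bp among the 34 genes was fragile, whereas its difference stayed positive under every alternative run. With the replicate number as a block, an alternative to the unpaired main fit, no gene passed in limma (3269 at an unadjusted p under 0.05), Il18bp included. Il18bp also failed to pass when any of the 3 induced arrays or uninduced replicates 2 or 3 was left out. Its differences then ran from 3.75 (without induced replicate 2) to 4.21 (without induced replicate 1). It passed without uninduced replicate 1 (4.26 ± 0.30), as did 7.99% of all genes. These fits share most of their arrays, so their range of 3.75 to 4.26 is narrow by construction and no test of stability.

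**Figure D1:**
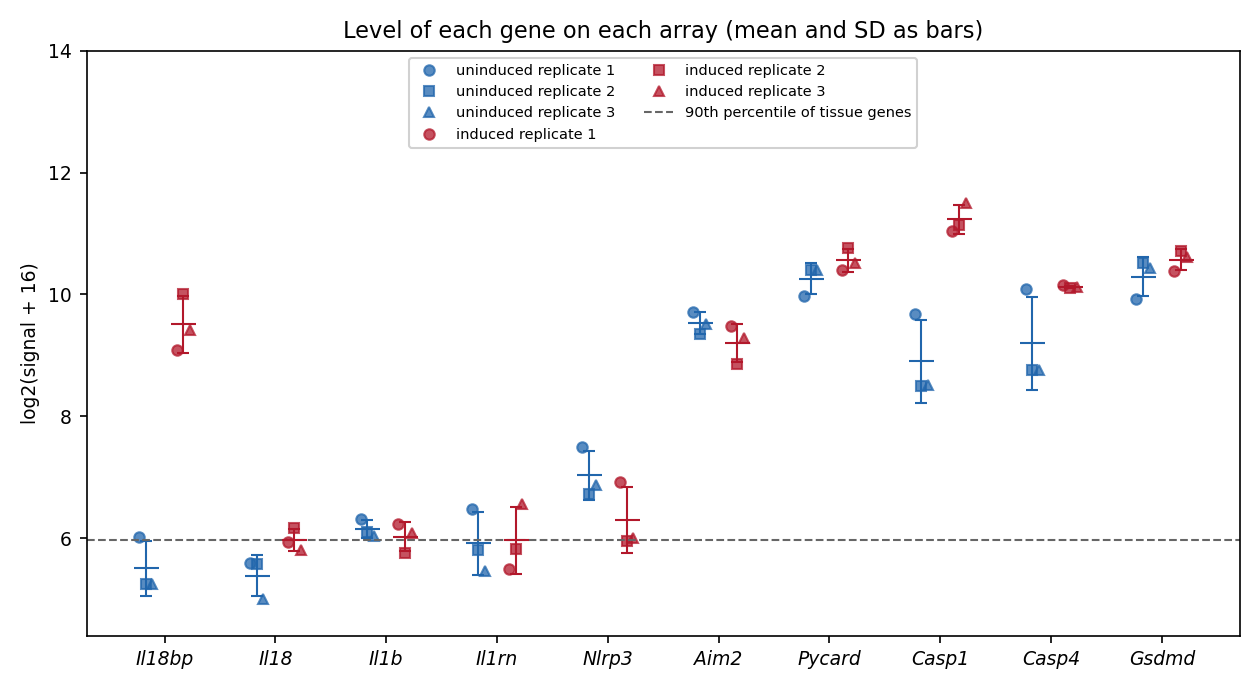
Level of each of the 10 genes, as log2(signal + 16), on 3 uninduced (blue) and 3 induced (red) arrays, with the symbol giving the replicate and the bars the mean and SD; the dashed line is the 90th percentile of the tissue genes that stand for silent ones (5.98). Il18bp went from near this line to between 9.09 and 10.02, and Casp1 from between 8.49 and 9.69 to between 11.05 and 11.51, while uninduced replicate 1 of Casp4 (10.08) lay just under the induced arrays.

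Il18 itself, the cytokine that the binding protein traps, was dim on every array. Its signals were 45.6, 55.8 and 40.1 on the induced arrays and 32.1, 31.5 and 16.04 on the uninduced arrays. All induced arrays were the higher ones, by a gap of 0.22 on the log2 scale between the nearest of them. The difference was 0.59 ± 0.22 (SE), and the group means of 5.97 and 5.39 both lay under the silent level, so whether Il18 was expressed in these cells cannot be told from its probe set.

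Il1b, which encodes the precursor of IL-1β, showed no separation. Its signals were 59.4, 38.2 and 51.9 on induced and 63.6, 52.8 and 49.5 on uninduced arrays, close to the silent level in both, and the difference was -0.12 ± 0.19 (SE). The groups overlapped, and the sign turned (0.01) without induced replicate 2.

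Il1rn, the gene of the IL-1 receptor antagonist, was read by 3 probe sets that did not point one way. The brightest had signals of 29.1, 40.7 and 78.8 on induced and 72.9, 40.2 and 27.9 on uninduced arrays, with a difference of 0.05 ± 0.37 (SE). The others gave 0.56 ± 0.37 and -0.28 ± 0.24. The groups overlapped on all 3 probe sets, and all 3 had group means under the silent level. Within the same replicate number the brightest probe set gave -0.98, 0.01 and 1.11, so that neither a rise nor a fall was seen for the antagonist.

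The sensors did not rise with Il18bp. Nlrp3 encodes the sensor of potassium loss and membrane damage, and its signals were 106, 46.3 and 48.2 on induced and 164, 90.2 and 101 on uninduced arrays. Induced replicates 2 and 3 were the lowest arrays, and induced replicate 1 lay among the uninduced ones. The difference was -0.73 ± 0.34 (SE), and within each replicate number it was negative, at -0.56, -0.77 and -0.86. It did not pass over all genes, nor without uninduced replicate 1 (-0.50 ± 0.34) or without any other single array (from -1.05 to -0.56). Among the alternatives run it passed only with both replicate 1 arrays left out (-0.82 ± 0.12), a fit in which 8.12% of all genes did. Aim2, the sensor of cytosolic DNA, was well expressed, with signals of 697, 450 and 605 on induced and 827, 638 and 717 on uninduced arrays. The groups overlapped, the difference was -0.32 ± 0.22 (SE), and within each number it was again negative, at -0.24, -0.49 and -0.24.

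Since Nlrp3 is a gene of myeloid cells, the markers of monocytes and macrophages were set beside it. Of the 12 markers 10 were lower and 2 higher in induced cells, none passed in limma (7 at an unadjusted p under 0.05), and the median difference was -0.81. Over all genes 55.9% were lower and 17.4% had an unadjusted p under 0.05. The mean level of the list ranged from 6.14 to 6.82 on induced and from 6.80 to 7.38 on uninduced arrays, and 9 of the 12 exceeded the silent level in at least 1 group. By group means Cd14, Mrc1 and Marco did not, although Cd14 had levels of 6.67 and 6.78 on uninduced replicates 2 and 3. Adgre1 did, and its difference was -2.18 ± 0.58 (SE). For 5 of the 12 all induced arrays were below all uninduced ones, beside 13.4% of all genes. For 1 all induced arrays were above, beside 10.7% of all genes. The part of these markers in the Nlrp3 values was not tested. In bulk RNA, fewer cells of a type and less RNA per cell cannot be told apart.

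Pycard, the gene of the adaptor ASC, exceeded the silent level on every array by its brightest probe set. The brightest of its 3 probe sets had signals of 1338, 1721 and 1446 on induced and 989, 1337 and 1344 on uninduced arrays. Uninduced replicate 1 was the lowest, and the groups met at 10.40 on the log2 scale, where induced replicate 1 and uninduced replicates 2 and 3 lay together. The difference was 0.30 ± 0.20 (SE), and within the replicate numbers it was 0.43, 0.36 and 0.10. The other probe sets were near or under the silent level and gave -0.30 ± 0.23 and 0.19 ± 0.25.

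Casp1, the protease of the inflammasome, had the second largest difference of the group. Its signals were 2100, 2239 and 2893 on induced arrays and 808, 344 and 352 on uninduced arrays. The groups were separated by 1.36 on the log2 scale, and uninduced replicate 1 lay well above the other uninduced arrays. Mean signals were 2411 ± 423 (SD, n = 3) and 501 ± 265 (SD, n = 3), and the difference was 2.33 ± 0.36 (SE), which did not pass over all genes. By replicate number it was 1.36, 2.65 and 2.98. Without uninduced replicate 1 it was 2.72 ± 0.19 and passed, in a fit in which 7.99% of all genes did.

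Casp4, the lipopolysaccharide-sensing caspase, was higher in induced cells than in uninduced replicates 2 and 3 but level with uninduced replicate 1. On induced arrays its signals were 1119, 1089 and 1098, nearly equal, with an SD of 0.02 on the log2 scale. Uninduced replicates 2 and 3 were also nearly equal, at 419 and 417, but uninduced replicate 1 had 1069, within 0.03 of the lowest induced array. The difference was therefore 0.93 ± 0.37 (SE) over all arrays and 1.37 ± 0.13 without uninduced replicate 1, and 0.07, 1.35 and 1.36 by replicate number. It passed over all genes in the second of these fits, as did 7.99% of all genes, and not in the first. Casp1 and Casp4 are neighbours on chromosome 9 in the GRCm38.p6 gene table, and the next gene, Casp12, had levels of 8.67, 4.84 and 4.42 on induced and 6.46, 4.82 and 5.76 on uninduced arrays, with no separation.

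Gsdmd, the pore-forming substrate of both caspases, exceeded the silent level on every array. Signals were 1315, 1664 and 1551 on induced and 953, 1452 and 1360 on uninduced arrays. As for Pycard, uninduced replicate 1 was the lowest array and the groups overlapped. The difference was 0.28 ± 0.22 (SE), and 0.10 ± 0.16 without that array.

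**Figure D2:**
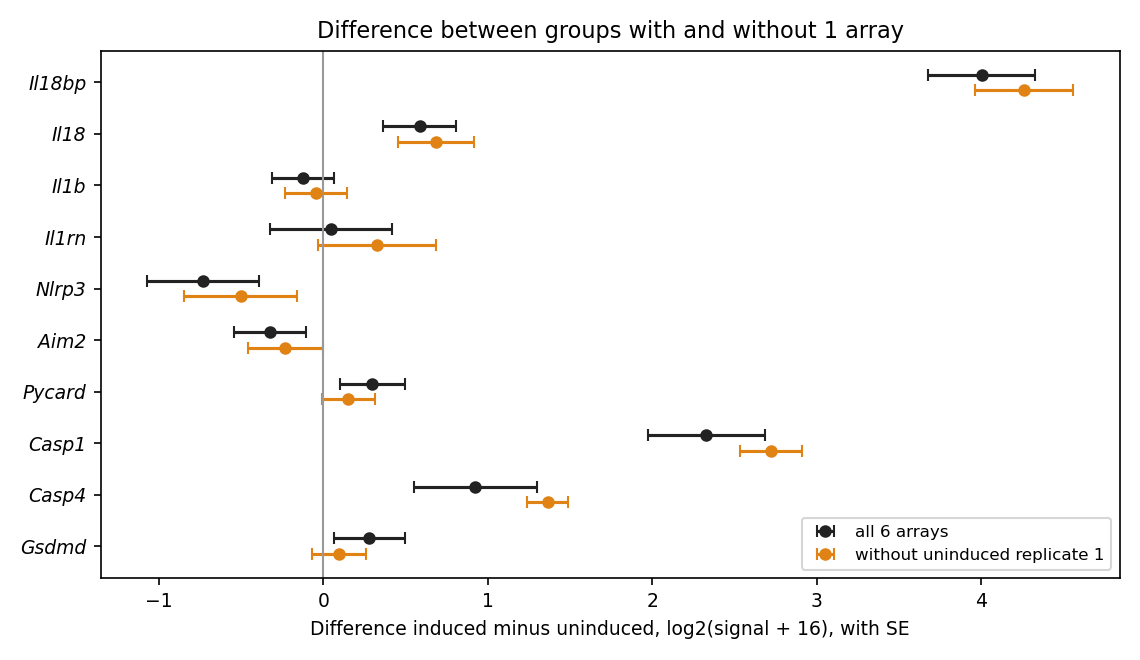
Induced minus uninduced cells, in log2(signal + 16), for each of the 10 genes, with its SE, from all 6 arrays (black) and without uninduced replicate 1 (orange). Il18bp, Casp1 and Casp4 lay further from 0 without that array (4.26, 2.72 and 1.37, against 4.004, 2.33 and 0.93), whereas Nlrp3, Aim2, Pycard and Gsdmd lay nearer to 0.

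Uninduced replicate 1 was above uninduced replicates 2 and 3 for 8 of the 10 genes, all but Pycard and Gsdmd, and for 46.9% of all genes. For Il18bp, Casp1 and Casp4 it lay 0.78, 1.18 and 1.32 above the mean of the other uninduced arrays, toward the induced level. For Nlrp3 it lay 0.69 above them, away from the induced level. The differences within the 3 replicate numbers had the same sign for 8 of the 10 genes, the exceptions being Il1b and Il1rn.

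The genes whose profile came nearest to that of Il18bp were Igtp, Oasl2, Irgm1, Irgm2, Ifit1bl1 and Gbp3. Likeness was the root mean square difference over the 6 arrays between log2 levels centred on each gene's mean, among 10915 other genes at or above the median level. The nearest was Igtp, an immunity-related GTPase, at 0.17, followed by Oasl2, an oligoadenylate synthetase-like protein, at 0.32, the GTPases Irgm1 and Irgm2 at 0.40 and 0.43, Ifit1bl1, an IFIT-like gene, at 0.49 and the guanylate-binding protein Gbp3 at 0.55. The median gene was 2.08 away. Since the genes were picked by likeness over these same arrays, their shared order of arrays follows from the choice. Casp1 was the 25th nearest (0.90) and Casp4 the 251st (1.58), whereas Nlrp3 stood at rank 9736 (2.43). The distance largely restates the size and sign of each gene's induced minus uninduced difference, so these ranks are no separate evidence.

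**Figure D3:**
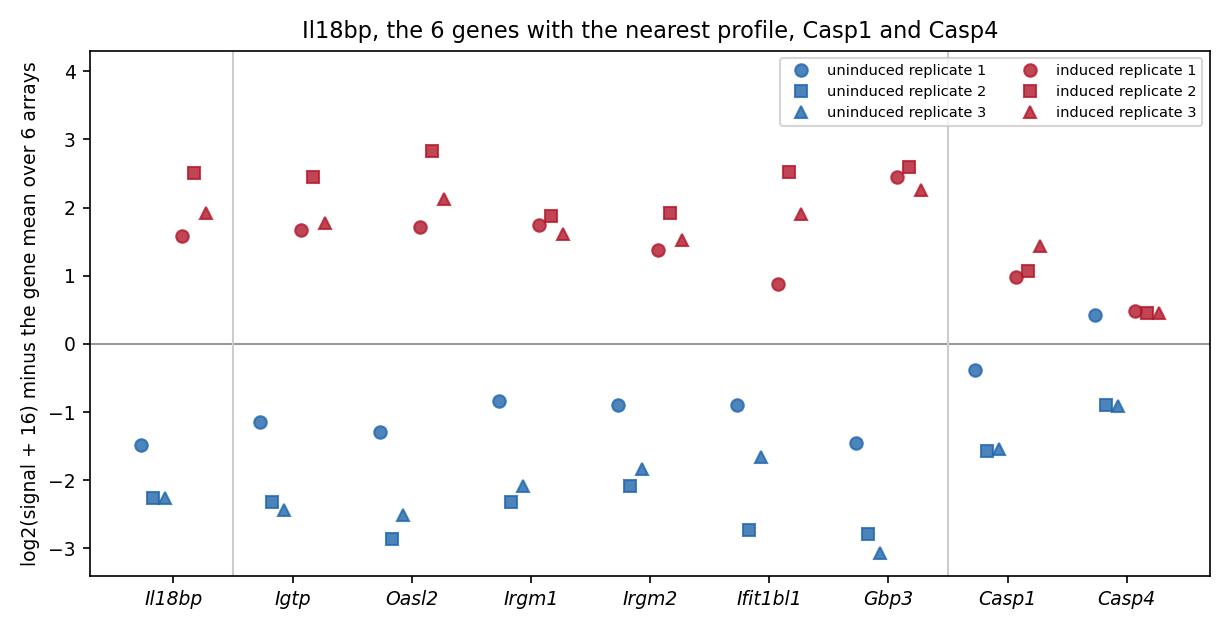
Levels of Il18bp, of the 6 genes with the nearest profile and of Casp1 and Casp4 on each array, as log2(signal + 16) minus the gene's mean over the 6 arrays; colours give the group and symbols the replicate. On each of these genes uninduced replicate 1 (blue circle) lay above the other uninduced arrays, which the choice by likeness over these arrays largely fixes for the 6 genes, and only for Casp4 did it come within 0.03 of an induced array.

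The wider pathway was described with 5 lists of genes outside the 10, and 0 of their 48 measured members passed in limma, beside 0.187% of all genes. At an unadjusted p under 0.05 there were 7 (14.6%), beside 17.4% of all genes. The other IL-1 family ligands had 2 of 7 members higher and 5 lower (71.4%, against 55.9% of all genes), with a median of -0.37. They were close to the silent level: no member had a mean above 6.64 in either group. Il1f5, Il1f8 and Il1f10, genes of IL-36 and related cytokines, stood at -0.98 ± 0.45, -0.73 ± 0.47 and -0.37 ± 0.23 (difference ± SE). The other probe set of Il1f5 gave -0.06.

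Of the 9 receptors 6 were negative (66.7%, against 55.9% of all genes), the median was -0.37, and 3 had all induced arrays below all uninduced ones (13.4% of all genes did). Only 3 of the 9, Il1rap, Il18rap and Sigirr, exceeded the silent level. Sigirr, an inhibitory receptor of the family, stood at -0.51 ± 0.15 and had levels of 8.76, 8.75 and 8.87 on induced and 9.42, 9.22 and 9.27 on uninduced arrays. Il1rap, the shared accessory chain of the IL-1 receptor, stood at -0.39 ± 0.22, and its 5 probe sets ranged from -0.50 to 0.17. The IL-18 receptor chain Il18r1 (-0.62 ± 0.24) was under the silent level in both groups.

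Signalling genes downstream of the receptors were all above the silent level. Of these, 3 of 10 were higher and 7 lower (70%, against 55.9% of all genes), with a median of -0.19. The kinase gene Map3k7 (TAK1) stood at 0.81 ± 0.18, with no overlap between the groups, although its 6 probe sets ranged from 0.01 to 0.81. Its adaptor Tab2 stood at -0.34 ± 0.16, and Tollip, a restraining adaptor, at -0.45 ± 0.22, although its other probe set gave 0.41. Without uninduced replicate 1 Map3k7 passed, at 0.92 ± 0.16, in a fit in which 7.99% of all genes did.

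Among inflammasome sensors and regulators 6 of 15 were higher and 9 lower (60%, against 55.9% of all genes), with a median of -0.15. Txnip, which encodes a thioredoxin inhibitor that can bind NLRP3, stood at -2.26 ± 0.28, and at -2.51 ± 0.22 without uninduced replicate 1, where it passed. P2rx7, the ATP-gated channel that triggers NLRP3 through potassium loss, stood at -2.71 ± 1.25, with levels of 5.17, 7.02 and 6.59 on induced and 6.04, 10.36 and 10.52 on uninduced arrays. Both arrays numbered 1 were the lowest of their group. Without uninduced replicate 1 alone the difference was -4.18 ± 0.58 and passed. With both arrays numbered 1 left out it was -3.63 ± 0.20 and passed, as did 8.12% of all genes. The 3 probe sets of P2rx7 ranged from -2.71 to -1.88 over all 6 arrays. In the fit without uninduced replicate 1, 3 of the 48 genes of the 5 lists passed, beside 7.99% of all genes. Brcc3, a deubiquitinase of NLRP3, stood at 0.54 ± 0.19, and its 5 probe sets ranged from 0.01 to 0.96.

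Genes of pyroptosis and related caspases had 5 of 7 higher, 2 lower (28.6%, against 55.9% of all genes) and a median of 0.35. Casp8, the initiator caspase of death receptors, stood at 0.80 ± 0.19, with levels of 11.81, 12.28 and 12.08 on induced and 11.44, 11.09 and 11.26 on uninduced arrays. Serpinb1a, an inhibitor of neutrophil proteases, stood at 1.36 ± 0.38, and Ninj1, which ruptures the membrane of dying cells, at -0.26 ± 0.19. The 4 probe sets of Ninj1 ranged from -0.41 to 0.0042. For Casp8 and Serpinb1a all induced arrays were above all uninduced ones, which held for 10.7% of all genes.

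**Figure D4:**
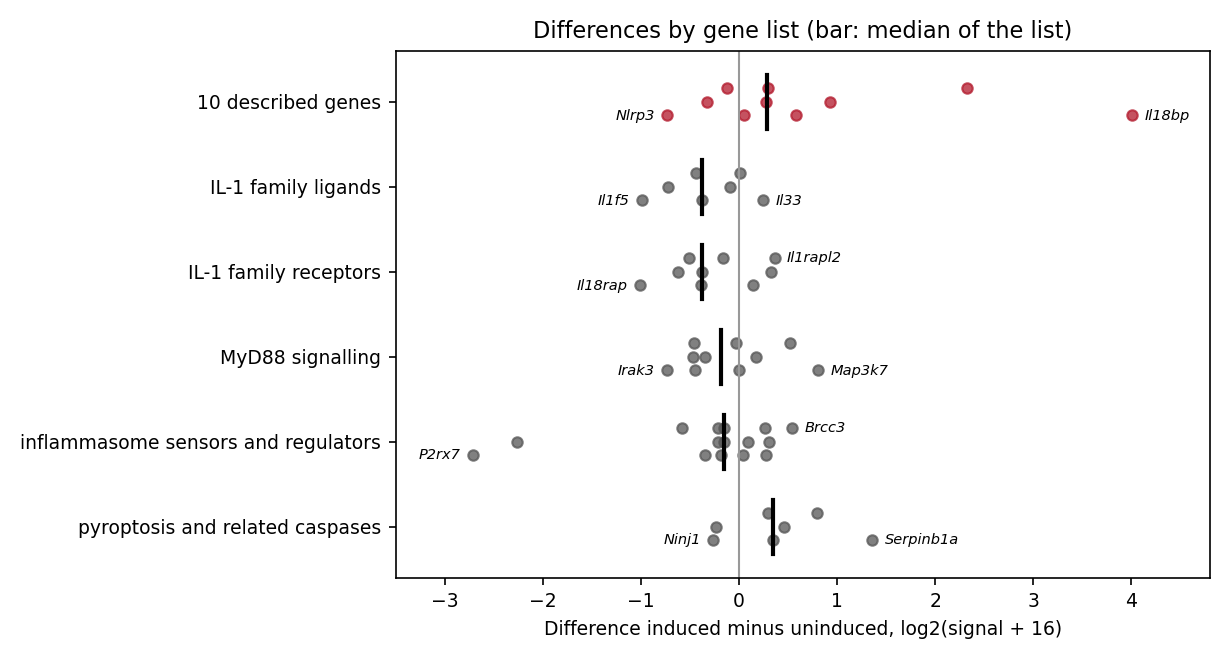
Induced minus uninduced cells, in log2(signal + 16), for the 10 genes (red) and for the measured genes of 5 lists of the wider pathway (grey), 1 point a gene, with the median of each list as a bar and the lowest and highest gene named. The medians were 0.29 for the 10 genes and from -0.37 to 0.35 for the lists, and Il18bp and Casp1 lay above every gene of the 5 lists.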

How the data were processed

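RNA of 6 Ba/F3 cultures was measured on 6 Affymetrix arrays, 3 induced and 3 uninduced, grouped and numbered by the labels' titles. The labels do not say whether the 3 cultures were separate experiments, so the p-values speak only of the spread among these arrays, which may be technical. The deposited values are signal intensities on a linear scale, made by the authors with Affymetrix Expression Console 1.4.1, per the submitters' processing notes. The sources used here do not give the summary algorithm. Each array's mean signal, after trimming 2% of probe sets from either end, was 500.0. No detection calls were used. Precision is limited by the number of arrays.

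After removal of 64 control probe sets, 34945 of the other 45037 had exactly 1 symbol in the platform table. The probe set with the highest mean stood for its gene, which gave 18193 genes, and further probe sets were fitted together with all 34945. The simulated arrays on which the fit was tested had independent noise and no array set apart, so that test does not bear on uninduced replicate 1. Groups were compared on log2(signal + 16) with limma 3.58.1 in R 4.3.3 (lmFit and eBayes; two-sided tests with 4 residual degrees of freedom; p-values adjusted over all genes by Benjamini-Hochberg; threshold 0.05). Differences, SEs and calls are from this unpaired fit unless another is named. Same-numbered arrays deviated together (correlations of 0.32, 0.16 and 0.25), although induced replicate 2 with uninduced replicate 3 (0.14) and the reverse (0.22) correlated about as much. The arrays numbered 1 had correlations of -0.28 to -0.18 with other numbers. Deviations were taken from the mean of each group, so these negative values follow in part from the 0.32 and are no separate evidence. A fit with the replicate number as a block, which leaves fewer residual degrees of freedom, is an alternative and is given where it changes a call. No permutation test was run, since 3 arrays against 3 allow no p under 0.10.

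The 10 genes, the lists and the alternatives were chosen with earlier results of these data known. Named were all 10 genes, up to 3 genes with the smallest p of each of the 5 lists, the 6 genes nearest to Il18bp, Jak2 and Spag9; others are markers, or were named after their values were seen (Casp12, Il18rap and Mpeg1). Figures were drawn with matplotlib 3.10.9.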

Additional observations from a re-analysis of the deposited data

How the results depend on the processing

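Of 18193 genes 34 passed in limma. This count was 0 with the replicate block (3269 at an unadjusted p under 0.05), 0 with a pseudocount of 1 (2816 unadjusted), 19 with the most variable probe set, 252 with a pseudocount of 64, 362 with the filter at the median, 550 with a trended and robust variance and 1477 with both replicate 1 arrays left out. It was 28 to 44 with median centring, quantile normalization, every probe set or the mean of probe sets, and ranged from 0 to 1453 when 1 array was left out, the highest without uninduced replicate 1. Of the 10 genes 1 passed. That count was 0 with the replicate block (5 unadjusted) and with a pseudocount of 1 (3 unadjusted), 2 each with the filter, a pseudocount of 64 and the trended variance (Il18bp and Casp1), and 4 with both replicate 1 arrays left out (Il18bp, Casp1 and Casp4 higher, Nlrp3 lower). With 1 array left out it ranged from 0 to 3, the highest without uninduced replicate 1. Of the 48 genes of the other lists 0 passed (7 unadjusted). There the count was 1 with the filter and with a pseudocount of 64 (Txnip), 3 with the trended variance, 6 with both replicate 1 arrays left out, and from 0 to 3 with 1 array left out. The replicate block changed no other call.

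The direction of 8 of the 10 genes held under every alternative run, with Il18bp between 3.05 and 4.58 and Casp1 between 2.13 and 2.81. With 1 array left out Il1b ranged from -0.23 to 0.0097, positive without induced replicate 2, and Il1rn from -0.26 to 0.33, negative without induced replicate 3 or uninduced replicates 2 or 3. The causes were not tested. Genes under the silent level, Il18 and Il1rn in both groups and Il18bp in uninduced cells, have no reliable fold.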

Other observations

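The values of 2 further genes, named after they were seen, spread widely within a group. Il18rap, the accessory chain of the IL-18 receptor, had levels of 7.24, 9.20 and 9.17 on induced replicates 1, 2 and 3 and of 7.66, 10.35 and 10.64 on uninduced replicates 1, 2 and 3. Its difference was -1.01 ± 0.92 (SE) in limma over all arrays and did not pass, and its other probe set gave -0.32. With both replicate 1 arrays left out it was -1.31 ± 0.15 and passed, as did 8.12% of all genes. Mpeg1, the macrophage gene of the pore-forming protein perforin-2, had 4.67, 9.13 and 8.91 on induced and 4.51, 4.70 and 5.05 on uninduced arrays. It was thus above the silent level on induced replicates 2 and 3 and on no other array, unlike Il18bp, which was high on all 3 induced arrays.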
